A study of Mus musculus with 33 samples.

Results

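The genes described here are 9 interferon-stimulated genes of the mouse, Ifit1, Ifit2, Ifit3, Oasl2, Rsad2, Isg15, Usp18, Stat2 and Irf7. They were taken by symbol from the 21671 genes of the deposited expression table, and all 9 were present. Expression was measured by strand-specific sequencing of total RNA from livers and liver nodules of C57BL/6 mice. In the first set, AAV8-TBG-CRE, a virus that carries the Cre recombinase under a hepatocyte promoter, was injected into a vein of 6- to 8-week-old mice, and livers were taken after 4 days. These 20 livers came from 4 genotypes of 5 mice each, and all of them, the wild-type ones included, had received the virus. The Ex3 livers carried beta-cat Ex3, an allele from which Cre makes a stabilised β-catenin. The MYC livers carried R26-lslMYC, a MYC transgene that Cre switches on, and the MYC+Ex3 livers carried both. The second set held nodules, called tumours here, from mice with Albeta-CreERT2, a Cre that tamoxifen derivatives activate, and R26-lslMYC, either alone (MYC tumours, n = 3) or with beta-catEx3 (MYC+Ex3 tumours, n = 3). Its controls were 7 livers of wild-type mice taken 4 days after an intraperitoneal injection of 4-hydroxytamoxifen (4-OHT livers). The labels give no treatment, age or time for the tumours, so tumour, genotype, age and the interval since 4-OHT cannot be told apart in comparisons with the 4-OHT livers.

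Type I interferons bind a receptor whose kinases, Jak1 and Tyk2, phosphorylate STAT proteins, Stat2 among them. Stat2 acts in a complex with Irf9 that binds interferon-stimulated response elements in the promoters of target genes. Irf7 is both a target and a transcription factor that drives interferon genes themselves. The Ifit proteins bind foreign RNA, Rsad2 (viperin) makes a nucleotide that stops viral polymerases, and Oasl2 belongs to the 2′-5′-oligoadenylate synthetase family. Isg15 is a ubiquitin-like modifier, and Usp18 removes it from proteins and also blocks the receptor. In liver, hepatocytes and Kupffer cells, the resident macrophages, both respond to interferon.

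The response element was looked for in the promoters, because it is the sequence through which these genes are known to be read together. The search covered the 250 bases before each annotated start, in RefSeq sequences of GRCm38.p6, for GAAANNGAAA and its reverse complement TTTCNNTTTC, so both strands were covered. Promoter windows were found for 8 of the 9 genes, not for Usp18, and 5 of the 8 genes held a match. Of all 32851 windows, 2.98% held a match. The stretches with a match are printed 5′ to 3′ on the gene's own strand, with 25 bases to either side and the matches in capitals, and none of them overlaps an annotated GENCODE exon.
Ifit1 (chr19:34640760-34640838, plus strand): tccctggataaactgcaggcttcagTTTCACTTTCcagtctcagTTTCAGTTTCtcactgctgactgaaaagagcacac
Ifit3 (chr19:34583348-34583441, plus strand): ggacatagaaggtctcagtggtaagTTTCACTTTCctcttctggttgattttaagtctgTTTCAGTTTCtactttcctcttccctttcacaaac
Isg15 (chr4:156200850-156200921, minus strand): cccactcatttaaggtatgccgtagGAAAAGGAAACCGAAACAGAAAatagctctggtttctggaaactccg
Rsad2 (chr12:26456538-26456597, minus strand): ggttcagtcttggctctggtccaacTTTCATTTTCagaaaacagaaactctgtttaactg
Stat2 (chr10:128270251-128270310, plus strand): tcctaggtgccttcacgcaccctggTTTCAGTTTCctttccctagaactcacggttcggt
Ifit1 and Ifit3, neighbours on chromosome 19, each held 2 matches, and both genes showed the same pair of letters, TTTCACTTTC followed by TTTCAGTTTC. Isg15 held 3 overlapping matches. The Stat2 match lay farthest from the start, 222 bases before it, while those of Ifit1 began 104 and 85 bases before it. No match was found in the windows of Ifit2, Oasl2 and Irf7, which says only that these letters are not in those windows.

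Levels are given in RPKM, in which the reads of a gene are divided by its length and by the size of the library. RPKM of the AAV8-TBG-CRE livers and of the tumour set are on different scales and are not compared with each other. The livers given the virus had 3.75 M to 7.31 M reads in genes (M, mega), the 4-OHT livers 6.65 M to 8.59 M and the tumours 6.67 M to 9.82 M. The fewest reads behind a value of the 9 genes were 25, for Isg15 in wild-type liver replicate 2. The scale had a low top: the highest RPKM of any gene in a library lay between 220 and 396 in the livers given the virus and between 42.9 and 67.5 in the tumour set. Alb, an abundant hepatocyte transcript, lay near it, at 177 to 313 and at 33.2 to 54.5 RPKM. The cause of this top was not tested, and Irf7, the highest of the 9 genes, reached 114 and 29.2 RPKM. RNA of the squamous keratins Krt5, Krt14 and Krt17 summed to more than 1 RPKM in 3 wild-type, 3 Ex3, 1 MYC and 3 MYC+Ex3 livers given the virus, and to at most 0.0621 RPKM in the tumour set. All 10 hepatocyte markers were detected in every group. No label says whether samples of a group came from separate litters or were prepared on separate days. Differences are given as log2 changes, which are differences of the group means of log2(RPKM + 1) with their standard errors (SE), from limma with Benjamini-Hochberg adjustment over all genes tested, and a gene was called at an adjusted p under 0.05.

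In livers given AAV8-TBG-CRE, 8 of the 9 genes were called in no comparison, and the remaining 1, Stat2, was called lower in MYC+Ex3 than in wild-type livers. Most of the 9 varied widely between mice of one genotype. Ifit1, whose protein binds RNA that lacks the host cap, measured 50.2, 20.4, 29.7, 30.2 and 38.6 RPKM in the 5 wild-type livers. In the Ex3 livers it lay within 20.8 to 23.3 RPKM, in the MYC livers it measured 21.2, 20.3, 43.6, 93.1 and 51.3, and in the MYC+Ex3 livers 8.13, 6.11, 14.6, 68.3 and 20.5. The MYC and MYC+Ex3 groups therefore overlapped every other group, and the highest MYC+Ex3 liver was 11.2 times the lowest. The within-group standard deviation of log2(RPKM + 1) was 0.82 for Ifit1, 0.78 for Rsad2, 0.76 for Isg15, 0.73 for Ifit2 and 0.69 for Ifit3, against a median of 0.29 over all genes tested. Stat2, at 0.28, varied no more than the median gene.

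**Figure D1:**
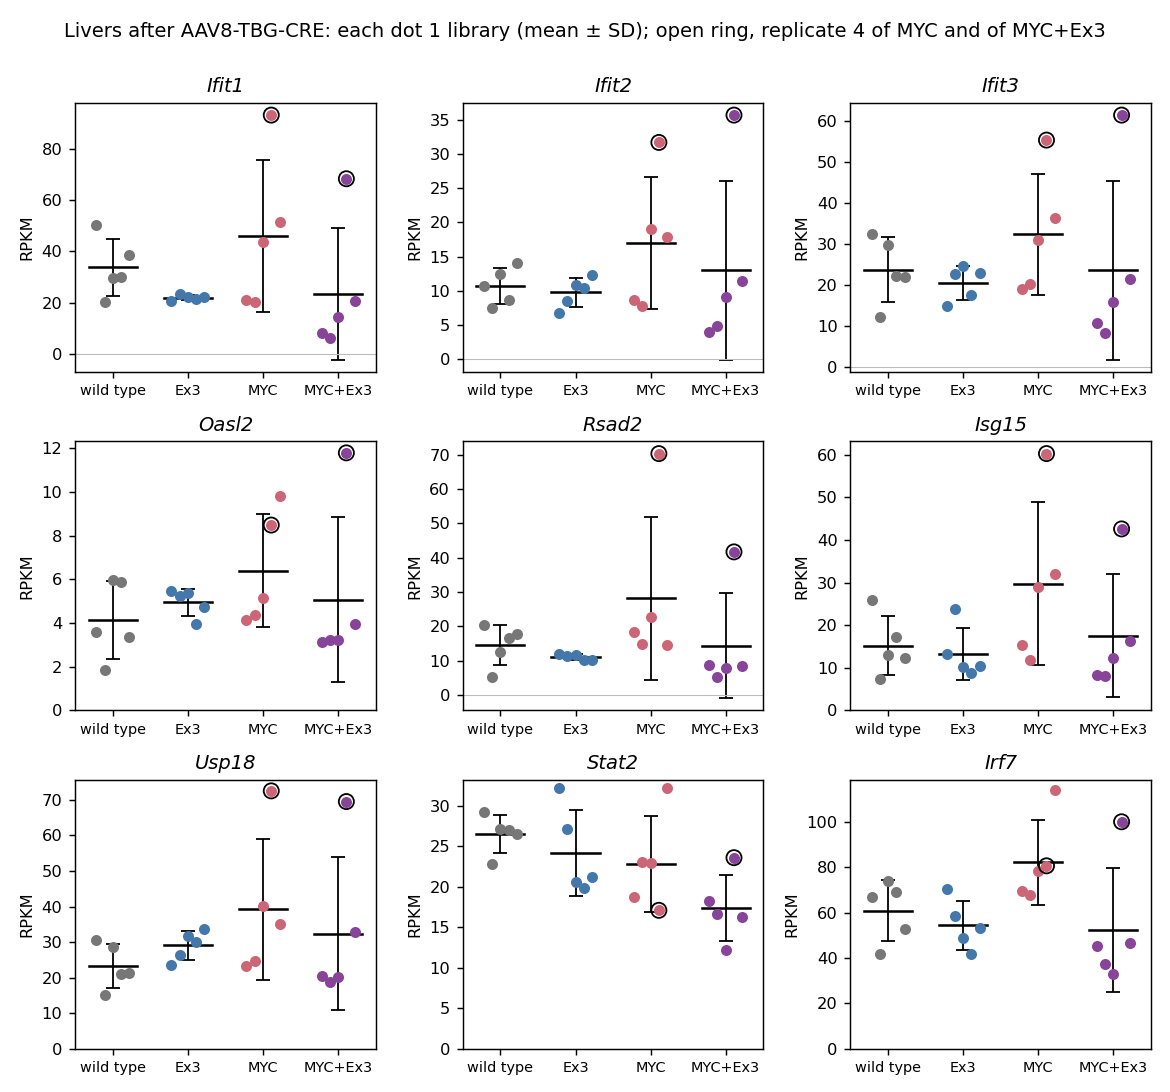
RPKM of each of the 9 genes (vertical axes, 1 panel per gene) in the 20 livers given AAV8-TBG-CRE, by genotype; each dot is 1 library, lines and bars are the mean ± SD of 5. Rings mark replicate 4 of the MYC and of the MYC+Ex3 livers, which at 93.1 and 68.3 RPKM of Ifit1 stand above the other livers of their groups.

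A MYC and a MYC+Ex3 liver stood apart. Replicate 4 of the MYC+Ex3 livers was the highest of its group for all 9 genes, with 61.4 RPKM of Ifit3 against 21.4 in the next liver and 69.5 RPKM of Usp18 against 32.7. Replicate 4 of the MYC livers was the highest of its group for 6 genes, with 70.3 RPKM of Rsad2 against 22.7 in the next and 60.3 RPKM of Isg15. It was the lowest of its group for Stat2, at 17.1 RPKM. At the other end, wild-type replicate 2 was the lowest of its group for all 9 genes. The 12 Kupffer cell and macrophage markers summed to 984 RPKM in MYC+Ex3 replicate 4, the highest of the 20 livers, to 461 in wild-type replicate 2, the lowest, and to 662 in MYC replicate 4, the lowest of its group. None of the 12 was at 0 throughout a group, and the part of these cells in the spread of the 9 genes was not tested. Ly6d, on the list of plasmacytoid dendritic cell markers, was highest in the same 2 livers, at 160 RPKM in MYC replicate 4 and 85.7 in MYC+Ex3 replicate 4. The other 5 markers of that list summed to 5.46 and 3.9 RPKM there, within the 2.16 to 5.85 RPKM of all 20 livers.

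**Figure D2:**
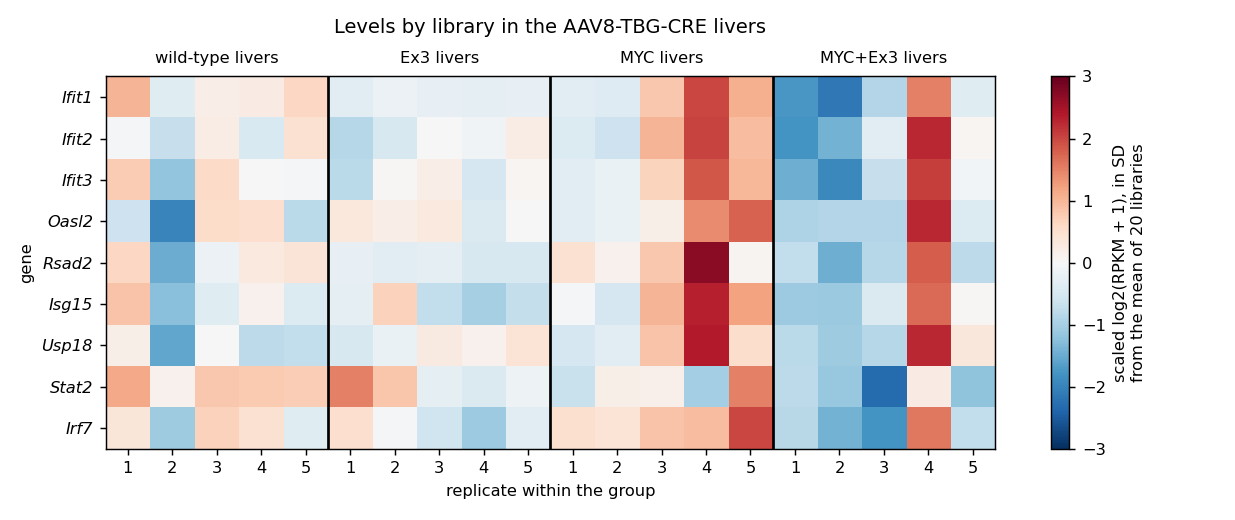
Each gene's log2(RPKM + 1) in the 20 livers given AAV8-TBG-CRE, in standard deviations from its mean over the 20 libraries (colour); columns are replicates within each genotype, rows the 9 genes. Replicate 4 of the MYC and of the MYC+Ex3 livers is high in most rows, MYC+Ex3 replicates 1 and 2 are low, and the Stat2 row does not follow the others.

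The 8 genes other than Stat2 moved together from mouse to mouse. After each group's mean was taken out, the Pearson correlations of their 28 pairs over the 20 livers had a median of 0.82 and a lowest value of 0.57, and the closest pair was Ifit1 with Ifit3, at 0.95. Stat2 had a median correlation of 0.27 with the other 8. These are descriptions, and Ifit1 and Ifit3 have relatives in the genome whose reads the counting could have split.

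Stabilised β-catenin alone left no detectable change. None of the 9 genes was called between Ex3 and wild-type livers (0.132% of the 13688 genes tested were), and none reached an unadjusted p under 0.05. The log2 change of Ifit1 was -0.55 ± 0.47 (SE, 95% interval -1.52 to 0.43), that of Usp18 0.33 ± 0.32, and those of the other 7 lay between -0.24 and 0.28. The Ex3 livers were close to each other for several genes: Rsad2 measured 10.2 to 12 RPKM in them, against 5.32 to 20.4 in wild-type livers.

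MYC alone gave higher means for 8 of the 9 genes, none of which passed the test, against 22.3% of all genes that were called. Irf7, the transcription factor, measured 66.9, 41.8, 74.1, 69 and 52.7 RPKM in wild-type livers and 69.6, 67.9, 78.5, 80.6 and 114 in MYC livers. Its 2 groups overlapped, and its log2 change of 0.43 ± 0.24 had an adjusted p of 0.203 in limma. Usp18, the brake on the receptor, had the smallest adjusted p of the 9, 0.153, with a log2 change of 0.64 ± 0.32 (95% interval -0.02 to 1.3). The largest log2 changes were those of Isg15, 0.81 ± 0.44, and Rsad2, 0.75 ± 0.45. Without MYC replicate 4 these were 0.5 and 0.36, and that of Ifit1 went from 0.26 to -0.04. That liver is also the 1 MYC liver with keratin RNA. Among livers without keratin RNA, 2 wild-type and 4 MYC, Isg15 was at 0.14, Rsad2 at 0.11 and Usp18 at 0.02. All 9 changes then lay between -0.29 for Ifit1 and 0.2 for Oasl2. Over all livers Stat2 was the exception in direction, at -0.24 ± 0.17. None of the 9 reached an unadjusted p under 0.05 in this comparison either.

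With MYC and β-catenin together, Stat2, a transcription factor of the interferon signal, was lower than in wild-type livers. It measured 29.3, 22.8, 27.1, 27 and 26.5 RPKM in wild-type livers and 18.2, 16.6, 12.2, 23.6 and 16.3 in MYC+Ex3 livers. Replicate 4, at 23.6, was the only MYC+Ex3 liver above the lowest wild-type liver. The means were 26.5 ± 2.36 and 17.4 ± 4.1 RPKM (SD, n = 5 each), and the log2 change was -0.61 ± 0.17 with an adjusted p of 0.0142 in limma. It was the 1 of 9 genes called, where 24.1% of all genes tested were called and 6.18% were called lower. In the authors' deposited table Stat2 has a log2 fold change of -0.68 with an adjusted p of 7.07e-05 for this comparison, and none of the other 8 genes has an adjusted p under 0.05.

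Whether the remaining genes were lower with MYC and β-catenin depended on which livers were compared. Over all livers the log2 change from wild type was -0.96 ± 0.47 for Ifit1 (adjusted p = 0.145 in limma) and lay between -0.3 and 0.31 for Ifit2, Ifit3, Oasl2, Rsad2, Isg15, Usp18 and Irf7. Without MYC+Ex3 replicate 4, Ifit1 fell by 1.46 (adjusted p = 0.00864) and Irf7 by 0.56 (adjusted p = 0.0365), both in limma, so that 3 genes were called with Stat2. That liver was the highest of its group for all 9 genes, so leaving it out lowers each group mean by construction. Among livers without keratin RNA, 2 wild-type and 2 MYC+Ex3, 5 genes were called lower, Ifit1 (log2 change -2.3, adjusted p = 0.00499 in limma), Ifit2 (-1.21), Ifit3 (-1.61), Rsad2 (-1.11) and Irf7 (-0.76), and Stat2 had -0.67 with an adjusted p of 0.0514. Among livers with keratin RNA, 3 of each, none was called, the log2 change of Ifit1 was -0.06 and that of Usp18 0.89, and Stat2 had -0.57 with an adjusted p of 0.077. The keratin-bearing MYC+Ex3 livers include replicate 4. Over the alternatives of this comparison the number of all genes called ran from 2395 to 6416, against 3301 with all livers. The share of all genes behind these counts of the 9 therefore moved as well. In the comparison without keratin, 26 of 64 other type I interferon targets, 9 of 12 macrophage markers and 6 of 7 endothelial markers were lower too. These counts rest on 2 against 2 livers. The share of all genes called lower in that fit is not given here, so the counts cannot be read against it. The part of those cells in the comparison was not tested.

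Set against the single genotypes, the livers with both alleles gave no call. Compared with MYC livers the log2 changes of all 9 genes were below 0, from -1.22 ± 0.47 for Ifit1 to -0.33 ± 0.32 for Usp18, and the smallest adjusted p was 0.745, for Irf7 (0.19% of all genes were called). At an unadjusted p under 0.05 in limma there were 4, Ifit1, Rsad2, Stat2 and Irf7, against 461 of all 13688 genes tested. Irf7 was called without MYC+Ex3 replicate 4, the highest liver of its group for this gene, at -0.99 with an adjusted p of 0.0198 in limma. Compared with Ex3 livers, Stat2 came nearest, at -0.46 ± 0.17 with an adjusted p of 0.0636 in limma, and it alone had an unadjusted p under 0.05, while 21.1% of all genes were called. It was called without MYC+Ex3 replicate 4, again the highest of its group, at -0.57, and without MYC replicate 4 or 5. The interaction of the 2 alleles, the departure of their joint effect from the sum of the single ones, was called in limma for none of the 9 and for 0% of all genes, of which 132 had an unadjusted p under 0.05. It lay between -0.79 and -0.22 for the 9 genes and had no unadjusted p under 0.05 among them. These comparisons share groups and are not independent of each other.

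The rest of the pathway moved little in livers given the virus. Of 64 other type I interferon targets tested, 5 were higher and 1 lower in MYC than in wild-type livers, where 22.3% of all genes were called, with a list median of 0.19 against 0.07 over all genes tested. The number of higher genes was 3 without wild-type replicate 2 and 8 without wild-type replicate 1. The largest was Slfn9, of the Schlafen family, at 2.06 ± 0.29, followed by the chemokine Cxcl10 at 1.39 ± 0.36. In MYC+Ex3 livers 2 rose, Slfn9 (2.05 ± 0.29) and the RNA-degrading enzyme Pnpt1 (0.62 ± 0.19), and 2 fell, among them Ifitm1 (-0.77 ± 0.26), with a median of -0.13. That number of lower genes was 9 after rescaling each library by its median ratio and 17 without MYC+Ex3 replicate 4. The kinases Jak1 (-0.32 ± 0.09 in MYC and -0.46 ± 0.09 in MYC+Ex3 livers) and Jak2 (-0.38 ± 0.11 and -0.41 ± 0.11) fell in both. They were the only 2 of 10 receptor and relay genes called in each, where 22.3% and 24.1% of all genes were called. In MYC livers 1 of these calls was left without wild-type replicate 4, and 0 with only the MYC and wild-type livers fitted. Jak1 was also low in Ex3 livers, where none of the 10 genes was called. Its means were 54.2 ± 3.88 RPKM in wild-type, 43.8 ± 3.24 in Ex3 and 43.3 ± 3.29 in MYC livers (SD, n = 5 each). Irf1, which drives many interferon-γ targets, fell by 0.43 in MYC+Ex3 livers. It was 1 of 3 interferon-γ-leaning genes called lower of the 26 tested, with Gbp8 and Irgm2. Over all genes 24.1% were called in this comparison and 6.18% were called lower. Without wild-type replicate 5 the number of interferon-γ-leaning genes called lower was 1, and without wild-type replicate 2 it was 6.

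In tumours, by contrast, most of the 9 genes were far below the 4-OHT livers. Ifit1, Ifit2, Ifit3, Oasl2, Stat2 and Irf7 fell in MYC tumours and fell in MYC+Ex3 tumours, and for each of these 6 genes every tumour lay below every 4-OHT liver. Rsad2, Isg15 and Usp18 were not called in either. Of the 11854 genes tested, 49.8% were called in the first comparison and 60.6% in the second, calls of lower genes made up 13.7% and 18.4%, and genes with every tumour below every control 8.89% and 17.8%. Both comparisons use the same 7 control livers. All 9 genes reached 1 RPKM in at least 3 control livers, and 8 of them did so in the tumours alone.

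**Figure D3:**
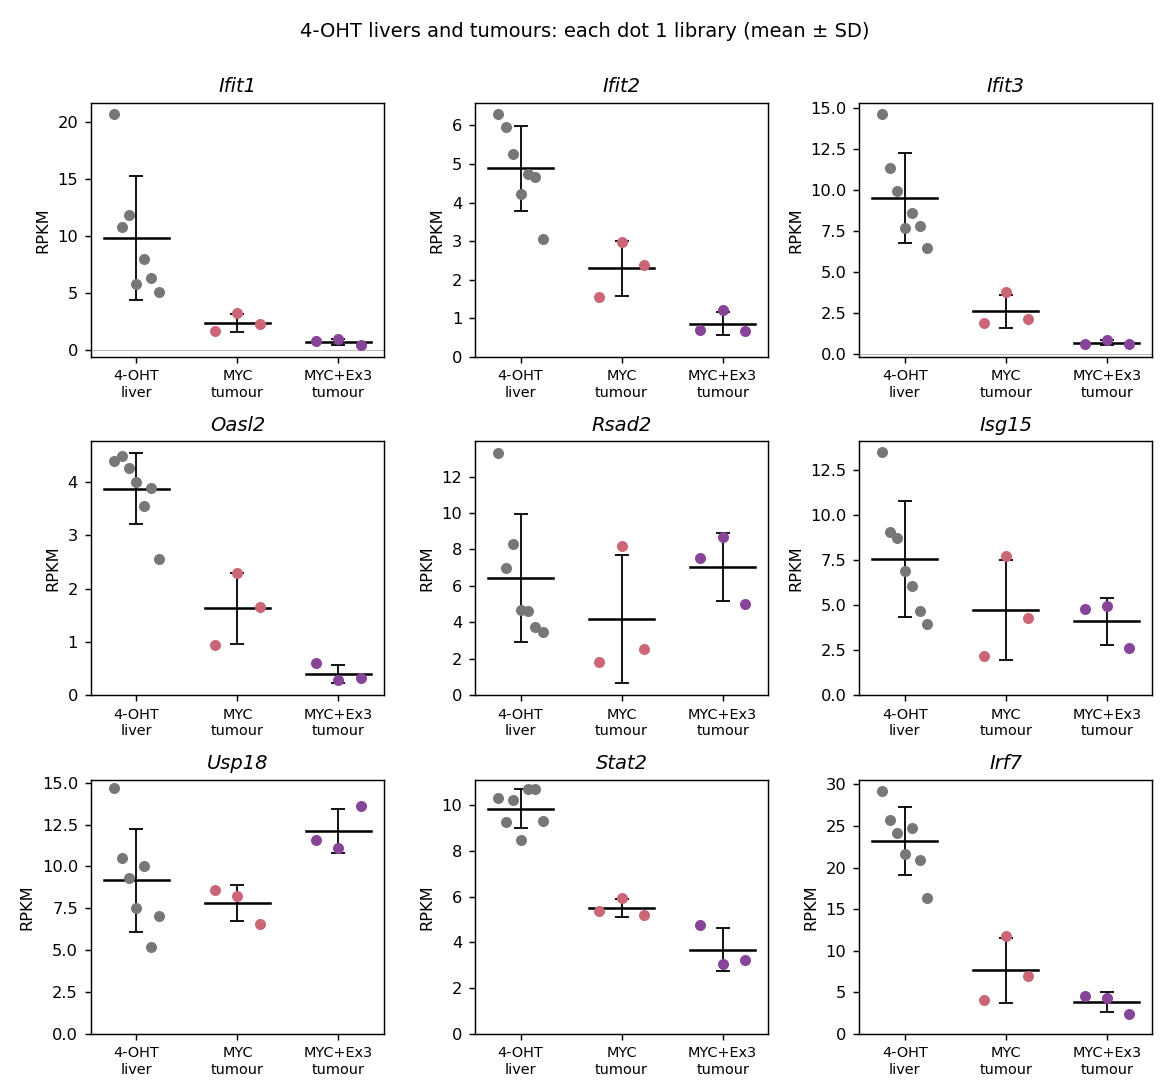
RPKM of each of the 9 genes (vertical axes, 1 panel per gene) in the 7 4-OHT livers, 3 MYC tumours and 3 MYC+Ex3 tumours; each dot is 1 library, lines and bars are the mean ± SD. For Ifit1, Ifit2, Ifit3, Oasl2, Stat2 and Irf7 no tumour reaches the lowest 4-OHT liver, and for Rsad2, Isg15 and Usp18 the groups overlap or the tumours lie within the range of the controls.

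Irf7 measured 16.3, 24.1 and 29.2 RPKM as the lowest, median and highest of the 4-OHT livers. It measured 4.08, 11.8 and 6.96 RPKM in the MYC tumours and 4.59, 4.35 and 2.4 in the MYC+Ex3 tumours. The group means were 23.2 ± 4.08 (SD, n = 7), 7.61 ± 3.89 and 3.78 ± 1.2 RPKM (SD, n = 3 each), so the mean was 3.05 times lower in MYC tumours and 6.14 times lower in MYC+Ex3 tumours. Its log2 changes were -1.57 ± 0.24 (adjusted p = 0.000153 in limma) and -2.36 ± 0.24 (adjusted p = 2.69e-06). Stat2 had the smallest within-group standard deviation of log2(RPKM + 1) in the tumour set, 0.16. It ran from 8.45 through 10.2 to 10.7 RPKM in 4-OHT livers, and measured 5.38, 5.94 and 5.17 in MYC tumours and 4.74, 3.04 and 3.23 in MYC+Ex3 tumours. Its log2 changes were -0.74 ± 0.12 (adjusted p = 0.000211 in limma) and -1.23 ± 0.12 (adjusted p = 1.45e-06). The 3 groups of Stat2 did not overlap.

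Ifit1 and Ifit3 had the lowest means relative to the controls of the 9 genes. Ifit1 ran from 5.11 through 8.01 to 20.7 RPKM in the 4-OHT livers, with replicate 1 far above the others. It measured 1.63, 3.24 and 2.26 RPKM in MYC tumours and 0.761, 0.977 and 0.417 in MYC+Ex3 tumours, where each value rests on 34 to 77 reads. The means were 4.12 and 13.6 times lower than in 4-OHT livers. Ifit3 ran from 6.45 through 8.61 to 14.6 RPKM in the controls, and measured 1.86, 3.75 and 2.14 in MYC tumours and 0.592, 0.855 and 0.583 in MYC+Ex3 tumours. Its means were 3.67 and 14 times lower, with log2 changes of -1.55 ± 0.21 (adjusted p = 5.14e-05 in limma) and -2.61 ± 0.21 (adjusted p = 3.07e-07). Those of Ifit1 were -1.57 ± 0.32 and -2.53 ± 0.32, with adjusted p-values of 0.00111 and 1.33e-05. Addition of 1 to values below 1 RPKM makes the log2 changes smaller than the ratios of the means, and the authors' deposited table has log2 fold changes of -3.94 for Ifit3 and -3.77 for Ifit1 in MYC+Ex3 tumours. Ifit2, also an RNA-binding family member, was at 3.05, 4.74 and 6.3 RPKM as lowest, median and highest control and at 1.54, 2.97 and 2.38 in MYC tumours. It was at 0.704, 1.2 and 0.664 RPKM in MYC+Ex3 tumours. Its log2 changes were -0.84 ± 0.18 and -1.65 ± 0.18.

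Oasl2 had the lowest levels per length of the 9 genes. It ran from 2.55 through 4 to 4.49 RPKM in the 4-OHT livers and measured 0.948, 2.29 and 1.65 in MYC tumours. In MYC+Ex3 tumours it measured 0.597, 0.278 and 0.32 RPKM, on 26 to 68 reads. The means were 2.38 and 9.74 times lower, with log2 changes of -0.91 ± 0.16 and -1.8 ± 0.16 and adjusted p-values of 0.000501 and 9.95e-07 in limma.

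Usp18, Rsad2 and Isg15 overlapped the controls in both kinds of tumour. Usp18 ran from 5.16 through 9.29 to 14.7 RPKM in the 4-OHT livers and measured 8.6, 8.21 and 6.59 in MYC tumours and 11.6, 11.1 and 13.6 in MYC+Ex3 tumours. All 6 tumours lay within the range of the controls. The log2 changes were -0.16 ± 0.22 (95% interval -0.63 to 0.3) and 0.42 ± 0.22 (-0.05 to 0.88), so a fall of the size seen for Ifit1 lay outside both intervals. With the 3 S15 controls alone, or without 4-OHT replicate 1, the highest control, it was called higher in MYC+Ex3 tumours. Rsad2 ran from 3.46 through 4.68 to 13.3 RPKM in controls. It measured 1.81, 8.2 and 2.52 in MYC tumours, with replicate 2 within the controls and the other pair below all of them, and 7.51, 8.66 and 5 in MYC+Ex3 tumours. Its log2 changes were -0.61 ± 0.38 and 0.2 ± 0.38 (95% intervals -1.42 to 0.2 and -0.6 to 1.01). Without MYC replicate 2, the highest MYC tumour for this gene, Rsad2 was called lower in MYC tumours, at -1.13 with an adjusted p of 0.0187 in limma. Isg15 ran from 3.97 through 6.89 to 13.5 RPKM in controls, and measured 2.16, 7.7 and 4.3 in MYC tumours and 4.77, 4.96 and 2.61 in MYC+Ex3 tumours. Its log2 changes were -0.62 ± 0.33 and -0.69 ± 0.33, with adjusted p-values of 0.134 and 0.0822 in limma. It was called lower in MYC tumours under 2 of 22 alternatives, and in MYC+Ex3 tumours under 5 of 22. Those 2 were without MYC replicate 2, the highest MYC tumour for Isg15, at -0.98, and with the S14 controls alone, at -0.97. In the authors' deposited table Isg15 has a log2 fold change of -1.01 with an adjusted p of 0.00335 between MYC+Ex3 tumours and controls, so the call on Isg15 differs between the tests. Whether these 3 genes differ from the other 6 in their change was not tested as such.

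**Figure D4:**
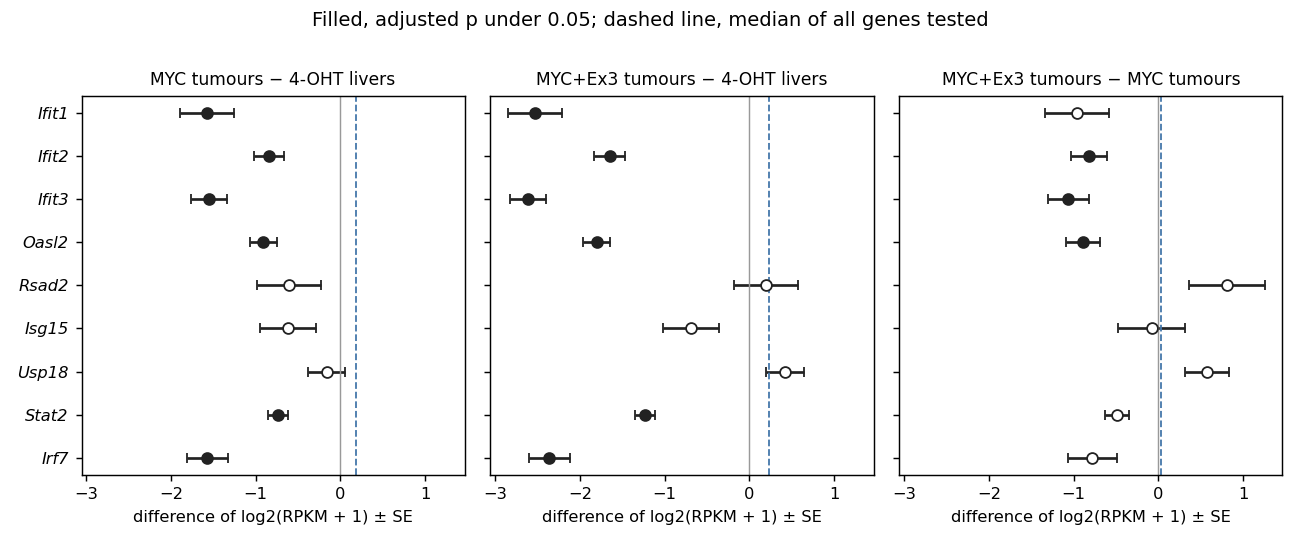
Difference of log2(RPKM + 1) ± SE (horizontal axis) of each of the 9 genes in the 3 comparisons of the tumour set, from limma; filled points passed an adjusted p of 0.05 and the dashed line is the median of all genes tested (0.19, 0.23 and 0.03). Ifit1, Ifit2, Ifit3, Oasl2, Stat2 and Irf7 lie left of 0 in all 3 panels, while Usp18 and Rsad2 lie right of 0 in the MYC+Ex3 panels.

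The genes tested as a whole were shifted upwards in tumours, with a median log2 change of 0.19 in MYC and 0.23 in MYC+Ex3 tumours, so each fall is larger relative to that median. Of the genes called, 72.6% were higher in MYC and 69.7% in MYC+Ex3 tumours. After rescaling by the median ratio these shares were 53.4% and 55.2%, and the same 6 genes were called lower in MYC tumours, with Ifit1 at -1.74 and Usp18 at -0.36. In MYC+Ex3 tumours Isg15 joined them after rescaling, at -0.87 with an adjusted p of 0.0304 in limma, while Rsad2 was at 0.01 and Usp18 at 0.21. The calls on the 6 genes held with each library left out in turn and with either of the 2 sets of control livers that the titles name, S14 and S15. They also held with a term for sex in the fit.

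MYC+Ex3 tumours lay below MYC tumours for Ifit1, Ifit2, Ifit3, Oasl2 and Stat2 in every library, and above them for Usp18 in every library. Such complete separation downwards was seen for 7.71% of all genes tested and upwards for 8.59%. The test called 3 genes lower, Ifit2 (-0.82 ± 0.21, adjusted p = 0.047), Ifit3 (-1.06 ± 0.24, adjusted p = 0.0242) and Oasl2 (-0.89 ± 0.2, adjusted p = 0.0193), all in limma, where 4.13% of all genes were called and 2.1% were called lower. Stat2 was at -0.49 ± 0.14 (adjusted p = 0.0657), Ifit1 at -0.96 ± 0.38 (adjusted p = 0.189), Irf7 at -0.78 ± 0.29, Usp18 at 0.58 ± 0.26 and Rsad2 at 0.81 ± 0.45. The mean of Oasl2 was 4.09 times lower and that of Ifit3 3.82 times lower than in MYC tumours. These calls rest on 3 against 3 tumours. None held without MYC+Ex3 replicate 2 or replicate 3, and 1 held without MYC replicate 2. With the tumours fitted alone, Ifit2 and Ifit3 were not called and Oasl2 was below the filter and not tested. In the authors' deposited table Ifit1, Ifit2, Ifit3 and Oasl2 have adjusted p-values under 0.05 in this comparison, with Ifit1 at a log2 fold change of -1.35 and an adjusted p of 0.00945.

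Other interferon targets fell with these 6 genes. Of 62 other type I interferon targets tested, 45 were lower and 3 higher in MYC tumours than in 4-OHT livers, with a list median of -0.73 against 0.19 over all genes tested. In MYC+Ex3 tumours 48 were lower and 3 higher, with a median of -1.08 against 0.23, and 43 genes were lower in both. The 3 that rose in both were Isg20 and Pnpt1, which degrade RNA, and the RNA helicase Mov10, named after their values were seen, of which 1 was called in MYC tumours without MYC replicate 3. Apol9b, an apolipoprotein L family member, fell from 18.3 ± 3.99 RPKM in 4-OHT livers (SD, n = 7) to 4.38 ± 4.07 in MYC and 0.121 ± 0.0522 in MYC+Ex3 tumours (SD, n = 3 each). Its log2 changes were -2.18 ± 0.38 and -4.08 ± 0.38, the largest of the list, and its near-identical neighbour Apol9a, with which it may share reads, had -2.17 ± 0.31 and -3.66 ± 0.31. Parp14, a mono-ADP-ribosyltransferase, was at 9.68 ± 1.54, 4.32 ± 1.24 and 1.25 ± 0.482 RPKM in the 3 groups. Between the tumour types 10 of the 62 were lower and 0 higher, among them Apol9b (-1.9 ± 0.45), Apol9a (-1.49 ± 0.37) and Parp14 (-1.23 ± 0.21). That number was 2 without MYC+Ex3 replicate 3 and 0 with the tumours fitted alone, where fewer of the genes passed the filter. In MYC tumours the number of lower genes was 37 without MYC replicate 3 and 27 with the S15 controls alone. Of the 62 genes, 44 reached 1 RPKM in at least 3 tumours, and the others were tested only because of their level in the controls.

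Most targets that lean towards interferon-γ were lower too. Of 24 tested, 21 were lower in MYC and 23 in MYC+Ex3 tumours, none was higher, and the list medians were -1.08 and -1.56. Iigp1, a GTPase that attacks parasite vacuoles, was at 27.3 ± 4.14 RPKM in 4-OHT livers and at 12.6 ± 9.35 and 2.82 ± 0.693 in the tumours. The guanylate-binding proteins Gbp3 and Gbp7, which coat intracellular pathogens, fell by 1.96 and 1.92 in MYC tumours and by 2.6 and 2.38 in MYC+Ex3 tumours on the log2 scale. In MYC+Ex3 against MYC tumours 7 of the 24 were lower, with Iigp1 at -1.6 ± 0.36. None was called when the tumours were fitted alone, where fewer of the genes passed the filter, or without MYC+Ex3 replicate 2. Of the 24, 14 reached 1 RPKM in at least 3 tumours. The others, Gbp3 among them, were tested only because of their level in the controls.

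**Figure D5:**
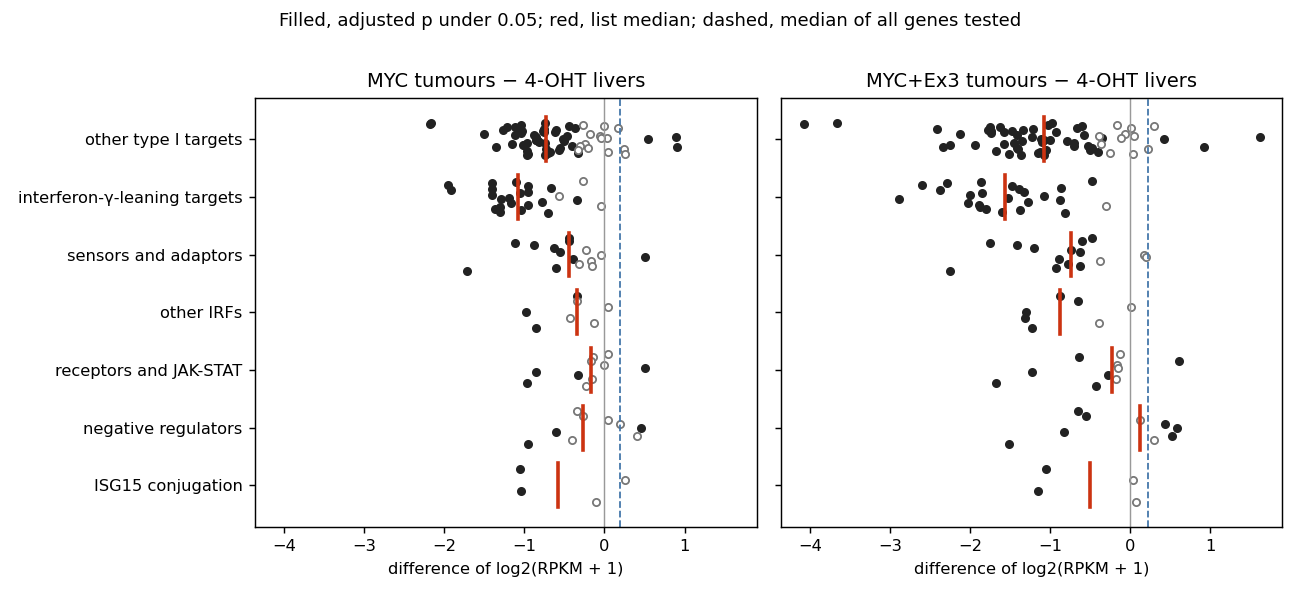
Difference of log2(RPKM + 1) from 4-OHT livers (horizontal axis) of every tested gene of 7 interferon lists (rows) in MYC and in MYC+Ex3 tumours; filled points passed an adjusted p of 0.05, red bars are list medians and the dashed line the median of all genes tested. The medians of the type I and interferon-γ-leaning targets lie at -0.73 and -1.08 in MYC and at -1.08 and -1.56 in MYC+Ex3 tumours.

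Upstream of these targets, the transcription factor Irf9 fell in both kinds of tumour and the receptors changed in part. Of 10 receptor and relay genes tested, 3 were lower in MYC and 5 in MYC+Ex3 tumours, and 1 was higher in each. Counted in both directions, calls on this list were no more frequent than among all genes. Of all genes, 49.8% and 60.6% were called, and 13.7% and 18.4% were called lower. Irf9, which binds DNA with Stat2, had log2 changes of -0.86 ± 0.15 and -1.23 ± 0.15. Ifnar2, a chain of the type I receptor, was lower in MYC+Ex3 tumours (-0.64 ± 0.12), and Ifngr1, a chain of the interferon-γ receptor, was higher there (0.61 ± 0.11), at 14.7 ± 1.28 against 9.26 ± 0.676 RPKM. After rescaling, 6 and 9 of the 10 were called lower. Of 15 sensors of foreign nucleic acid and their adaptors tested, 9 were lower in MYC and 12 in MYC+Ex3 tumours. Of the 15, 14 reached 1 RPKM in at least 3 tumours. The other, the nucleic acid sensor Zbp1, was lower in both (-1.72 ± 0.21 and -2.25 ± 0.21) but tested only because of its level in the controls. The RNA sensors Dhx58 (-1.12 ± 0.22 and -1.75 ± 0.22) and Ifih1 (-0.88 ± 0.17 and -1.41 ± 0.17) were also lower. With sample quality weights 5 of the 15 were lower in MYC tumours. Among interferon regulatory factors other than Irf7, 3 and 5 of 7 were lower, and with the S15 controls alone 1 was lower in MYC tumours. Some genes, Irf9 and Ifih1 among them, stand on more than 1 list. In the Isg15 conjugation machinery the activating enzyme Uba7 (-1.04 ± 0.2 and -1.15 ± 0.2) and the ligase Herc6 (-1.05 ± 0.17 in both) were lower, the other 2 genes tested were not called, and Isg15 itself is described above. Of 9 negative regulators besides Usp18, 2 were lower and 1 higher in MYC tumours, and 4 were lower and 3 higher in MYC+Ex3 tumours. Among the higher ones was Ptpn2, a phosphatase of STAT proteins (0.46 ± 0.1 and 0.59 ± 0.1). The shares of all genes given above apply to each of these lists.

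Interferon transcripts other than that of Ifnk were at or near the limit of the libraries. Of 13 interferon genes in the table, Ifnk alone passed the filter, in the tumour set only through its level in the 4-OHT livers. Ifnk had reads in all 33 libraries, at most 52 in 1 of them, and reached 11.1 RPKM. Its log2 change in MYC+Ex3 tumours was -0.47 ± 0.15. Ifnb1 had a read in 5 of the 33 libraries, never more than 1, and Ifna1, Ifna5, Ifna12 and Ifne had none in any library. Ifng had at most 4 reads in a library. A level below this depth was not detectable.

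Macrophage and endothelial markers were lower in the same tumours. For comparison, 49.8% of all genes tested were called in MYC and 60.6% in MYC+Ex3 tumours, and 13.7% and 18.4% were called lower. Of the genes called, 72.6% and 69.7% were higher. Of 12 Kupffer cell and macrophage markers, 10 were lower in MYC and 9 in MYC+Ex3 tumours, with list medians of -0.98 and -1.11, and 4 in each with the S15 controls alone. Without MYC replicate 1 or MYC+Ex3 replicate 1, 6 were lower. Their summed level ran from 191 to 264 RPKM in 4-OHT livers, from 80.4 to 205 in MYC and from 111 to 140 in MYC+Ex3 tumours, and none of the 12 was at 0 throughout a group. MYC tumour replicate 1, with the lowest macrophage sum, was the lowest of its group for 7 of the 9 genes, and replicate 2, with the highest sum, was the highest for 8. The MYC+Ex3 tumours did not follow this order: replicate 1, with the lowest sum (111 RPKM), was the lowest for 0 genes and the highest for 3, and replicate 3 (132 RPKM) was the lowest for 6. Of 7 endothelial markers, 4 and 5 were lower, and their sum ran from 43.5 to 72 RPKM in controls, 26.6 to 40.6 in MYC and 27 to 31.8 in MYC+Ex3 tumours. Monocyte and neutrophil markers went the other way, with 0 of 7 higher in MYC (1 at an unadjusted p under 0.05 in limma, and 6 called without MYC replicate 1) and 5 of 7 in MYC+Ex3 tumours, where they summed to 93.4 to 115 RPKM against 22.7 to 43.9 in controls. Hepatocyte markers summed to 328 to 444 RPKM in controls and to 271 to 456 over the tumours, with 0 (1 at an unadjusted p under 0.05 in limma) and 4 of 10 called lower, and 6 and 7 after rescaling. Of 7 stellate cell and fibroblast markers, 3 were lower and 2 higher in MYC and 5 lower and 1 higher in MYC+Ex3 tumours, with Col1a1 higher in both (1.6 ± 0.29 and 0.92 ± 0.29). Of 3 B cell markers tested, 3 were lower in MYC+Ex3 tumours, and 1 with the S15 controls alone. All 5 B cell markers together summed to 1.05 to 1.12 RPKM in these tumours and to 2.15 to 7.49 in controls. The filter was therefore passed mainly through the level in the controls. In bulk samples fewer cells of a type and less RNA per cell cannot be told apart, and the part of these cells in the change of the 9 genes was not tested. Between the 2 tumour types, where Ifit2, Ifit3 and Oasl2 differed, 0 of the 12 macrophage markers were called in limma, 1 was lower at an unadjusted p under 0.05, and their list median was -0.11. Without MYC replicate 1, 2 of the 12 were called lower. Other cell types moved in this comparison. Of all 11854 genes tested in it, 4.13% were called, 2.1% were called lower and 2089 had an unadjusted p under 0.05 in limma. The endothelial list had a median of -0.46, with 4 of 7 markers lower at an unadjusted p under 0.05 and Cdh5 called (-0.55 ± 0.14). The monocyte and neutrophil list had a median of 1.19, with 4 of 7 higher at an unadjusted p under 0.05 and 0 called in limma. Spp1 (-1.21 ± 0.24), on the bile duct list, and Col3a1 (-0.61 ± 0.16), on the fibroblast list, were called lower. The part of these cells in the differences between tumour types was not tested.

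The genes whose levels were most like those of the 9 were found by the Pearson correlation of each other tested gene with the mean of the 9 scaled levels. Over the 20 livers given the virus the closest with a usable name were Rtp4 (0.95), Slfn8 (0.93), Lpxn (0.91), Xaf1, Parp12 and Cd48 (each 0.9), and after group means were taken out Rtp4 (0.95), Ifih1 (0.93), Phf11b, Slfn8 and Lgals3 (each 0.92). Over the 13 libraries of the tumour set they were Samd9l, Trim34a, Oasl1, Trim30d, Arhgap24 and Trim12c (each 0.98). After group means were taken out, Samd9l and Rtp4 (each 0.97), Trim30d (0.96) and Oasl1 (0.95) were among the closest. Between the 6 genes that fell, the median correlation was 0.97 over the 13 libraries and 0.71 after group means were taken out. These 6 were picked for their fall in both tumour types, so a high value over the 13 libraries follows from that choice. With group means removed, all 36 pairs of the 9 genes had a median of 0.73, from 0.07 (Usp18 with Stat2) to 0.95 (Rsad2 with Isg15). Neither gene of that closest pair is among the 6. Rsad2 with Ifit1 was then at 0.89, Isg15 with Ifit1 at 0.88 and Usp18 with Rsad2 at 0.58. The correlation of Usp18 with Ifit1 was -0.06 over all 13 libraries and 0.73 once group means were removed. The 3 MYC+Ex3 tumours did not follow this, since Usp18 was highest (13.6 RPKM) where Ifit1 was lowest (0.417 RPKM).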

How the data were processed

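The deposited values are RPKM per gene and library, made by the authors. Per the submitters' processing notes, the build was mm9 and the tools were TopHat, TopHat2 2.0.8, SAMtools, featureCounts 1.4.5-p1 and DESeq2, with no roles given. The authors' deposited table also holds log2 fold changes and adjusted p-values for 7 comparisons, printed only where that table is named. Per-sample columns of other series numbered 0. Groups came from titles, genotypes and treatments. Replicate numbers follow the order of the records.

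RPKM were tested as log2(RPKM + 1) with limma 3.58.1 in R 4.3.3 (trend, two-sided), for genes at 1 RPKM or more in at least 3 libraries of a fit. The fit held 20 libraries for the livers given the virus and 13 for the tumour set, and 9 comparisons were made. The procedure was tested on simulated data. Reads behind a value were recovered from RPKM ratios between libraries (all 20485 genes above 0 came out whole within 0.02 reads) and used only to give depth. Within-keratin subsets used libraries above or below a summed 1 RPKM. Cell type markers, the 9 genes and the pathway lists were chosen with earlier results of these data known. Genes named from a list are examples from its 6 called genes with the largest changes in at least 1 comparison, unless said otherwise. P-values measure the spread between these samples, which may in part be technical. Values of 1 further gene are not reported here.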

Additional observations from a re-analysis of the deposited data

Results flagged for a closer look

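In groups of 4 to 10 libraries, the highest or lowest library was set against its nearest neighbour with Dixon's gap test at the 95% level. The test was run for 45 groups of values, of which chance flags about 1 in 20, and it marked 10. Of these, 8 lie in 1 liver, MYC+Ex3 replicate 4 among the livers given AAV8-TBG-CRE, and they are not independent of each other. That liver measured 68.3 RPKM of Ifit1 against 20.5 in the next, 35.7 of Ifit2 against 11.4, 61.4 of Ifit3 against 21.4 and 11.8 of Oasl2 against 3.97. It also measured 41.7 RPKM of Rsad2 against 8.69, 42.6 of Isg15 against 16.2, 69.5 of Usp18 against 32.7 and 100 of Irf7 against 46.6. In MYC replicate 4, Rsad2 measured 70.3 RPKM against 22.7 in the next liver. In MYC replicate 5, Irf7 measured 114 RPKM against 80.6. No library of the 7 4-OHT livers was marked for any of the 9 genes, and the groups of 3 tumours were too small for the test.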

How the results depend on the processing

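The numbers of the 9 genes called did not move in the comparisons of Ex3 with wild type and of MYC with wild type (0 under every alternative), in the interaction (0), or by more than 1.5 times in either tumour type against 4-OHT livers, where 5 to 8 and 5 to 7 genes were called. No called change was reversed. In MYC+Ex3 against wild-type livers, 3 genes were called with sample quality weights, 5 among livers without keratin and 0 among those with it, and 1 to 3 with a liver left out. Against Ex3 livers, 1 was called after rescaling, 2 with quality weights, 1 with a keratin term, 2 among livers without keratin and 0 to 1 with a liver left out. Against MYC livers, 0 to 1 were called with a liver left out. Between the tumour types, 1 was called with a filter at 5 RPKM and 0 with the tumours fitted alone (Oasl2 was not tested in either), and 0 to 4 with a library left out. The cause was not tested. Over all genes, the numbers called and their range over the alternatives were 18 (2 to 62) for Ex3 and 3047 (1249 to 3727) for MYC against wild-type livers, and 3301 (2395 to 6416), 26 (6 to 78) and 2893 (1668 to 6707) for MYC+Ex3 livers against wild-type, MYC and Ex3 livers. They were 5907 (3636 to 6650) for MYC and 7189 (4278 to 8581) for MYC+Ex3 tumours against controls, and 489 (70 to 764) between tumours. Livers of MYC mice with keratin number 1, so that subset was not fitted there. No paired analysis was possible because replicate numbers only follow the order of the records. In MYC+Ex3 tumours, values below 1 RPKM limit the size of a log2 change.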

Other observations

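The titles split the 7 4-OHT livers into a set named S14 (4 livers) and a set named S15 (3 livers). The S14 livers had the higher mean for 8 of the 9 genes, with 12.3 against 6.47 RPKM for Ifit1, 8.3 against 3.94 for Rsad2 and 9.54 against 4.89 for Isg15. Stat2 had 9.56 in S14 and 10.2 in S15. What the names stand for is not given in the sources used here, and the difference was not tested.

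Ly6d, named after its values were seen, was higher in MYC than in wild-type livers given AAV8-TBG-CRE, with a log2 change of 2.93 ± 0.63 and an adjusted p of 0.00208 in limma. It ran from 0.974 to 6.45 RPKM in wild-type livers, from 5.91 to 62.7 in Ex3 livers, from 16.1 to 160 in MYC livers and from 14.1 to 85.7 in MYC+Ex3 livers.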
